A study of Homo sapiens with 2 samples.

Results

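The 42 genes described here encode AP-1 transcription factors and other immediate early proteins, and were taken by symbol from a list of 12 families. They were FOS, JUN, ATF and BATF, small MAF, EGR, IER, KLF, DUSP, ZFP36, SRF, NR4A, and a growth arrest group of BTG2, GADD45A and GADD45B. All 42 symbols were found among 20037 protein-coding genes of a RefSeq table (GRCh38.p14). Binding of KDM1B was mapped by ChIP-seq in the triple-negative breast cancer line MDA-MB-231. The cells stably expressed KDM1B with a 3xFLAG tag from the retroviral vector pOZ. There was 1 ChIP library, made with the anti-FLAG M2 antibody, and 1 input library from cells of the same genotype, so both groups carried the tagged protein. Cells without the tag were not analysed here. The tagged protein came from the vector, so the peaks describe the tagged and not the endogenous protein.

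KDM1B (LSD2) removes methyl groups from lysine 4 of histone H3 and has been described at promoters and along transcribed genes. AP-1 is a dimer of basic leucine zipper proteins, in which a JUN protein pairs with a FOS, ATF, BATF or JUN partner. Growth factors and stress switch on immediate early genes within minutes through MAP kinases, serum response factor (SRF) with its ternary complex partners, and CREB. The products include further transcription factors and also the phosphatases and RNA-binding proteins that end the response. MDA-MB-231 cells carry activating mutations in the RAS and RAF branch of this pathway, and FOSL1 is a well-known AP-1 subunit of such mesenchymal breast cancer cells.

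The only comparison was ChIP over input in the deposited list of 78536 peaks, each with a log2 ratio. With 1 library in each group there are no replicates and no test, so no value carries a replicate error, and every comparison below is a description. Read counts were not part of the list, so the depth behind a ratio is unknown. For 12.4% of all peaks the ratio, taken out of the log, equalled a whole number of steps of 2.64, a form that an input count of 1 would give. Which peaks had 1 input read is unknown. RNA was not measured, so neither the level of these genes nor the markers of the cell line could be read from these data.

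KDM1B peaks were found at most AP-1 and immediate early genes. Counting midpoints inside a gene or up to 5 kb from it, 37 of 42 members had a peak (88.1%), against 67.3% of all protein-coding genes. These genes are short, with a median span of 7057 bp against 24115 bp over all protein-coding genes, and short genes had peaks less often. With the share of its own length class for each member, among 10 classes of equal size, 24.6 members would have had one. Of the members under 7 kb, 17 of 21 had a peak (81.0%), against 47.3% of all protein-coding genes under 7 kb. The 37 genes held 130 peaks, from 1 peak in 9 genes to 10 at FOSL2. Some of these lie close together, and with peaks within 1 kb of each other joined, 87 were counted.

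Peaks also covered a large part of these genes. The median share of the gene span covered was 19.7% for the 42 members, against 1.50% for all protein-coding genes. The means were 23.0% for the members and 11.6% for all genes, with 13.0% for genes of the members' length classes. At least 50% of the span was covered in 6 members (14.3%), against 7.26% of all protein-coding genes: GADD45B, IER2, KLF4, DUSP5, JUNB and MAFK. With the share of their length classes, 3.61 members would reach it. The gene with 5 kb on each side was more densely covered than the surrounding sequence, out to 500 kb on each side, for 30 of 42 members (71.4%), against 42% of all genes. For the gene span alone this held for 27 members (64.3%), against 39.4% of all genes. The gene-by-gene values below are for the gene span alone. With 5 kb added, 7 members changed sides relative to their surroundings: JUN, KLF10, DUSP10, ZFP36 and MAFF then lay above them, and KLF2 and BATF below.

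**Figure D1:**
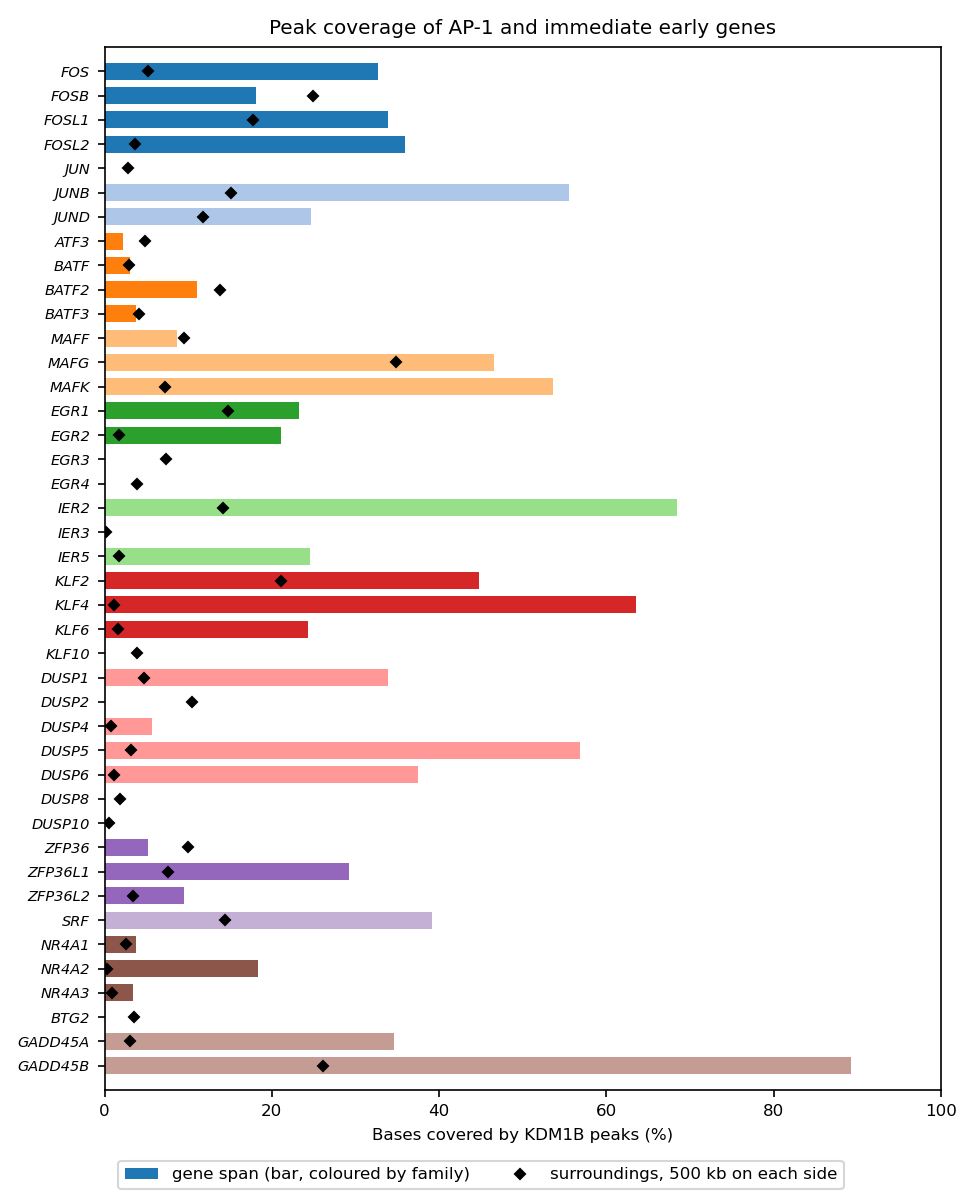
Percent of bases covered by KDM1B peaks in each of the 42 genes (bars, gene span, coloured by family) and in the sequence up to 500 kb on each side without the gene and its 5 kb flanks (diamonds). GADD45B reached 89.2%, while JUN, EGR3, EGR4, IER3, KLF10, DUSP2, DUSP8 and BTG2 had no covered base.

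Chromosome 19 is rich in peaks and holds 7 members, JUNB, JUND, FOSB, IER2, KLF2, ZFP36 and GADD45B. All 7 had a peak, against 73.1% of the protein-coding genes of that chromosome. Off chromosome 19, 30 of 35 members had one (85.7%), against 66.9%. Without the 7 genes the median coverage of the members was 11.1%, against 1.37% for all genes off chromosome 19. The surrounding sequence of the 7 was also densely covered, at a median of 15.1%, against 3.56% around the other 35.

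From 1 kb on, the share of members with a peak changed little with the sequence added to the gene. In the gene span alone 30 members had a peak (71.4%), against 58.0% of all genes. With 1 kb on each side it was 36 members (85.7%), against 62.4%, and from 2 to 10 kb it was 37.

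**Figure D2:**
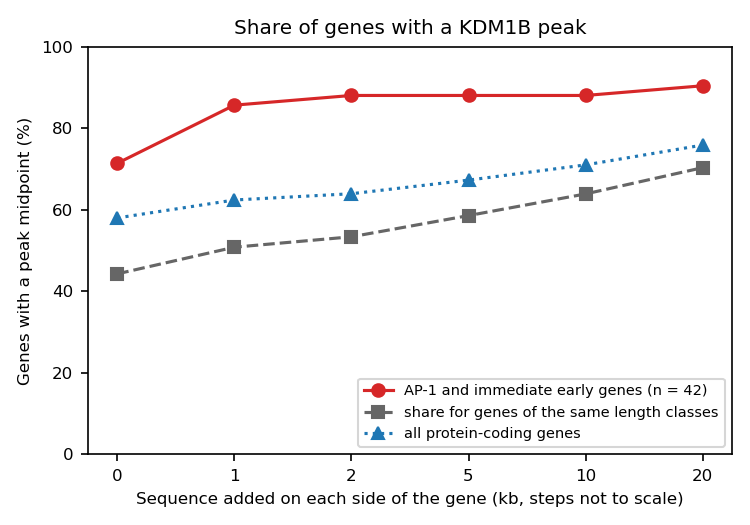
Percent of genes with a peak midpoint in the gene or in the sequence added on each side (0 to 20 kb, steps not to scale). The 42 members run from 71.4% to 90.5%, above the share for genes of the same length classes (44.3% to 70.4%) and above all protein-coding genes (58.0% to 75.9%).

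The 5 genes without a peak were EGR4, IER3, DUSP2, DUSP8 and BTG2. The nearest peak midpoint lay 10.9 kb from EGR4, 37.7 kb from DUSP2, 75.4 kb from DUSP8, 103 kb from BTG2 and 154 kb from IER3. IER3, a regulator of cell survival on chromosome 6 (30743199 to 30744547), thus lay in a stretch with few peaks, covered to 0.18% within 500 kb. At the other side of the 5 kb limit, the gene whose nearest peak was farthest was EGR3, at 1541 bp. The distances of the 5 genes were therefore well beyond those of the others.

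Peaks at gene starts could be placed for the 31 members with a start and strand in the RefSeq promoter table. Only that start was used for each gene, and other starts of the same gene were not examined. In 3 members, BATF2, MAFG and DUSP8, it lay inside the gene span and not at its end. FOSL1, BATF3, MAFK, EGR3, IER3, KLF10, DUSP4, DUSP5, ZFP36L2, NR4A2 and GADD45A were not matched. A peak midpoint lay within 1 kb of the start in 21 of 31 members (67.7%), against 37.3% of 15842 protein-coding genes. With the share of their length classes, 10.5 members would be reached. A peak covered the start base itself in 13 (41.9%), against 28.1% of all genes. In the other 8 genes with a start peak, the peak stood beside the start. It lay only after the start in 6 of the 21 (28.6%), against 13.98% of 5908 genes with a start peak, and only before it in 2 (9.52%), against 9.70%.

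The 6 genes with the peak after the start were FOSB, JUNB, MAFG, IER5, ZFP36L1 and GADD45B. These peaks began close to the start, from 13 bp after it at MAFG and 23 bp at JUNB to 267 bp at ZFP36L1. The 2 with the peak before it were JUN, where it ran from -1322 to -384 bp, and EGR1, where it ran from -1778 to -116 bp. Within 500 bp of the start the count fell to 11 of 31 members (35.5%), against 28.8% of all genes, so the difference from all genes was smaller at that distance.

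**Figure D3:**
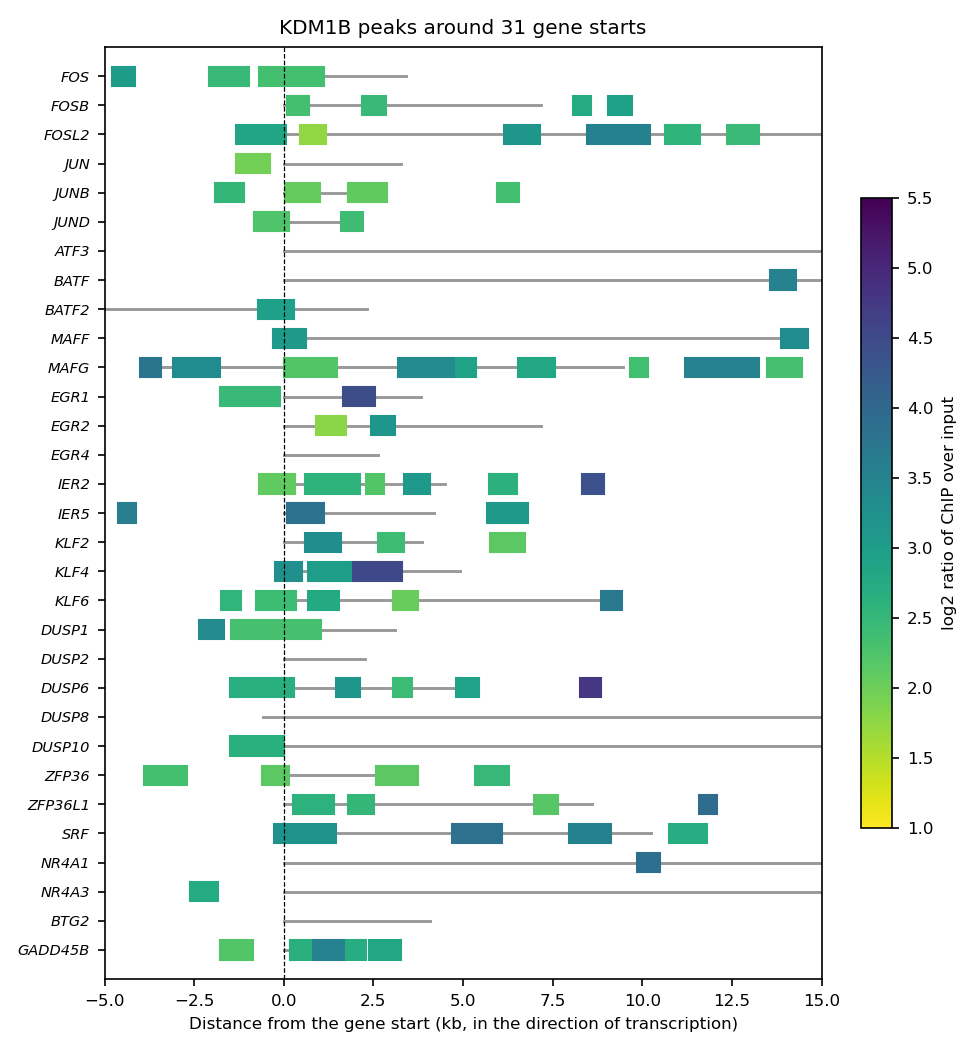
Peaks (boxes, coloured by log2 ratio of ChIP over input) around the starts of the 31 genes with a known strand, from 5 kb before to 15 kb after the start. Grey lines are gene spans, cut at the edges of the plot, and a peak midpoint lies within 1 kb of the dashed line in 21 of the genes.

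At the other end of the gene a midpoint within 1 kb was found in 10 of 31 members (32.3%), against 17.4% of all genes. On chromosome 19 it was 6 of 7 members (85.7%), against 26.4% of that chromosome's genes, while off chromosome 19 it was 4 of 24 (16.7%), against 16.6%. JUNB and JUND are shorter than 2 kb, but a different peak counted at each of their ends.

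The promoter sequences are shown for 5 genes whose start is under a peak, for EGR1, whose peak ends before the start, and for 2 genes without a peak, because elements through which immediate early genes are induced often lie near there. Each is the 250 bases before the start (RefSeq, GRCh38.p14, 5′ to 3′ on the gene's strand). Positions are counted back from the base before the start, which is -1. Capitals mark matches to the core TGACG and the full site TGACGTCA of the cyclic AMP response element, to the EGR sites GCGGGGGCG and GCGTGGGCG, and to the CArG box bound by SRF, on either strand. The full response element holds the core on both strands. Every window shown holds a marked match, so the windows are examples and not typical of the members. BATF2, DUSP6, DUSP10 and ZFP36, also wholly under a peak, held none of these matches. Nor did ATF3, BATF, MAFG, EGR2, IER5 and NR4A1, whose windows were not under a peak. The windows are FOS (chr14:75278578-75278827, plus strand), MAFF (chr22:38201744-38201993, plus strand), DUSP1 (chr5:172771196-172771445, minus strand), KLF6 (chr10:3785210-3785459, minus strand), SRF (chr6:43171019-43171268, plus strand), EGR1 (chr5:138465229-138465478, plus strand), and, with no peak within 5 kb, DUSP8 (chr11:1572272-1572521, minus strand) and BTG2 (chr1:203305269-203305518, plus strand).
FOS: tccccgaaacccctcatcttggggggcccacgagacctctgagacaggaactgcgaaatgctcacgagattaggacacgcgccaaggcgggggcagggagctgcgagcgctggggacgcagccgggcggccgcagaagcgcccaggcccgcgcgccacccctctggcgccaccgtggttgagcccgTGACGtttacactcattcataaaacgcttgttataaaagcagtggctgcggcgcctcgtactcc
MAFF: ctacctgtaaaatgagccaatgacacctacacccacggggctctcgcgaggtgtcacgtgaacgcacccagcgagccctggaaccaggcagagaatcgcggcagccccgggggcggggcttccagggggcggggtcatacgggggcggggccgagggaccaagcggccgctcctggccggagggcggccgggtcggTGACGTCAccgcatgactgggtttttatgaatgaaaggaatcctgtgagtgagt
DUSP1: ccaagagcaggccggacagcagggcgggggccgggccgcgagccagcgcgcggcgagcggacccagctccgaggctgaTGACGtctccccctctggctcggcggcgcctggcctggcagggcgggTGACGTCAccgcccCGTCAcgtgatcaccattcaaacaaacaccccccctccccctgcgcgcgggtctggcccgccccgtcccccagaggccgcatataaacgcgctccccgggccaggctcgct
KLF6: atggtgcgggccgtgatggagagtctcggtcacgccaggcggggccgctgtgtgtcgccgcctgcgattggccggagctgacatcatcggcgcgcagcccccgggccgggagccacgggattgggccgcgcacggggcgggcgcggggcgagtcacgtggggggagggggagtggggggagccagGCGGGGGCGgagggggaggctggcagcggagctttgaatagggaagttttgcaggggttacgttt
SRF: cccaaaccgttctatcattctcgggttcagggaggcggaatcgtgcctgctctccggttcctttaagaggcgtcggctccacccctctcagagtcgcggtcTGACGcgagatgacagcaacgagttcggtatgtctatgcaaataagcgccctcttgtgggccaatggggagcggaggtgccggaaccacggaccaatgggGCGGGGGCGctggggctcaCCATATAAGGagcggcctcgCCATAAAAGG
EGR1: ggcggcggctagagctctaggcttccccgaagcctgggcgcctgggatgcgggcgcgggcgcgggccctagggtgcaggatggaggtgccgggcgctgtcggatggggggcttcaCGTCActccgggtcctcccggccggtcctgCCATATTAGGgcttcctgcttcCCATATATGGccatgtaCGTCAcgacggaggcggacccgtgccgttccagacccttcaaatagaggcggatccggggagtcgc
DUSP8: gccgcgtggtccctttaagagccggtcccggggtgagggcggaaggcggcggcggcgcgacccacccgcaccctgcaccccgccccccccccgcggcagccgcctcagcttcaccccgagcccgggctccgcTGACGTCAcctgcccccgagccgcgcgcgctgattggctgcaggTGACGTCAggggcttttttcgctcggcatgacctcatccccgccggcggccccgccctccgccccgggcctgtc
BTG2: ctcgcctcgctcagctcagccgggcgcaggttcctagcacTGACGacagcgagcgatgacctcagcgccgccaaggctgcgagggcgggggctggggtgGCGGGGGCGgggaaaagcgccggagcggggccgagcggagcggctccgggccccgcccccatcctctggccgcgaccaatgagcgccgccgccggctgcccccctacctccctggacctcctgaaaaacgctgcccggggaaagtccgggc

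Of the 31 member promoters, 12 lay wholly under peaks, 2 in part (KLF4 to 98.8% and EGR1 to 54%) and 17 not at all. The share over all promoters was not computed for these counts, so they do not show whether the members differ from other genes. The core TGACG was found in 17 of 31 (54.8%), against 25.6% of 15842 promoters. The full element TGACGTCA was found in 4 (12.9%), against 2.32%: DUSP1, JUND and MAFF, all wholly under a peak, and DUSP8, which had none. The EGR site was found in 6 (19.4%), against 7.20%, with KLF6 and SRF under a peak and BTG2, DUSP2, GADD45B and KLF2 not.

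The CArG box was found in EGR1 and SRF (6.45%), against 1.14%. In SRF both boxes were covered by the peak, which ran from -261 to 1466 bp. In EGR1 the boxes that begin at -105 and -83 lay beyond the end of the peak at -116. The KLF and SP site GGGCGG was found in 22 (71.0%), against 56.0%, and the AP-1 site TGANTCA in none of the 31, against 5.04%. The median GC content of these windows was 68.4% in the members and 62.4% over all promoters. Over all promoters it was 66.8% in those with a start peak and 58.8% in those without. Among the members it was 68.4% with a start peak and 68.8% without. The shares of genes with a start peak given above were not matched for GC content. A match is a description of the letters, and no match says only that they are not in this window.

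The FOS family, whose proteins are the partners that make AP-1 dimers with JUN most stable, had peaks at all 4 genes and 25 peaks in all. FOSL2 on chromosome 2 (28392858 to 28417317) had 10, of which 9 midpoints lay in the gene, and 35.9% of its span was covered, against 3.69% in its surroundings. Its strongest peak, with a log2 ratio of 3.54, lay 9325 bp after the start. FOSL1 on chromosome 11 (65892049 to 65900545) had 8 peaks and 33.9% coverage, against 17.7% around it.

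Of the 8 peaks at FOSL1, 3 on its lower side were as near or nearer to CCDC85B, which leaves 5. FOS on chromosome 14 (75278828 to 75282230) had 3 peaks, one of them 1799 bp wide over the start with a log2 ratio of 2.34. This peak alone made up the 32.7% of FOS under peaks, against 5.16% in the surroundings. FOSB was the one member of the family with less coverage than its surroundings, 18.1% against 24.9%. Its 4 peaks had log2 ratios of 2.34 to 2.94.

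The JUN family encodes the obligate AP-1 subunits, and its 3 genes had the weakest peaks of the 12 families by median, at 2.25. All 7 of their log2 ratios lay between 1.95 and 2.52, below the lower quartile of the whole list at 2.58. JUN had 1 peak, the weakest of the 7, before the start, and no base of its span on chromosome 1 (58780791 to 58784047) was covered, against 2.77% around it. With 5 kb on each side 7.08% was covered. JUNB, a less potent activator than JUN, was covered to 55.6%, against 15.1%. The neighbours HOOK2, PRDX2 or THSD8 were as near to 3 of its 4 peaks. JUND, a constitutively expressed member, was covered to 24.7%, against 11.7%. Without the peaks at a whole number of steps it was 7.26%, against 11.3%.

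The 4 ATF and BATF genes had 1 peak each. ATF3, a stress-induced AP-1 partner, had its peak 43903 bp after the start used here, with a log2 ratio of 2.97. Whether the peak lies at another start of ATF3 was not examined. Of the gene 2.20% was covered, against 4.81% around it. BATF, BATF2 and BATF3 are AP-1 partners best known from lymphocytes and dendritic cells. BATF2 had its peak over the start (2.97) and was covered to 11.1%, against 13.8%. BATF (2.99%, against 2.96%) and BATF3 (3.72%, against 4.08%) had about the coverage of their surroundings. ATF3 and BATF3 lie 65.6 kb apart, and FOS and BATF 240.2 kb apart, so their surroundings overlap.

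The small MAF genes encode bZIP proteins without an activation domain that pair with NFE2 and BACH factors. MAFK on chromosome 7 (1530702 to 1543043) had 9 peaks with log2 ratios of 2.75 to 4.34 and 53.6% of its span covered, against 7.24% around it. MAFG also had 9 peaks and 46.6% coverage, but in a dense region covered to 34.8%, and 3 of the 9 were as near to SIRT7. MAFF had 3 peaks and 8.62% coverage, against 9.45%. Its start lay under a peak of 3.09, and its strongest peak (4.15) was nearer to TMEM184B.

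The EGR family of zinc finger factors, classic targets of SRF, was uneven. EGR1 on chromosome 5 (138465479 to 138469303) had 2 peaks, the one before its start with a log2 ratio of 2.46 and one 2108 bp after it with 4.46. It was covered to 23.3%, against 14.8%. EGR2 had 2 peaks inside the gene (1.79 and 3.14) and 21.1% coverage, against 1.76%. EGR3 had a peak of 5.49 that lay 1541 bp outside the gene. That peak was 500 bp wide, the smallest width in the list, and its ratio equalled a whole number of steps. EGR4 had none.

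SRF itself on chromosome 6 (43171269 to 43181506) had 4 peaks, with 39.2% coverage, against 14.3%. The peak over its start had a log2 ratio of 3.21 and the strongest, 5391 bp after the start, 3.84.

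All 4 KLF genes, zinc finger factors of growth and differentiation, had peaks. KLF4 on chromosome 9 (107484852 to 107489769) stood in a sparse region, with 63.6% of the gene covered, against 1.11% around it. Its 3 peaks ran almost without a gap from 247 bp before the start, with log2 ratios of 3.26, 3.01 and 4.53 along the gene. KLF6, often studied as a tumour suppressor, had 5 peaks and 24.3% coverage, against 1.64%. KLF2 was covered to 44.8%, against 21.1%, with its nearest midpoint 1087 bp after the start. With 5 kb on each side its coverage was 19.6%, below that of the surroundings, and in the gene span without the peaks at a whole number of steps it was 25.9%, against 19.8%. KLF10, a TGF-beta-induced member, had 1 peak (2.47), 884 bp outside the gene.

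The DUSP genes encode phosphatases that switch MAP kinases off, and their coverage differed widely, from 0 at DUSP2 and DUSP8 to 56.9% at DUSP5. DUSP5, a nuclear ERK phosphatase on chromosome 10 (110497907 to 110511533), had 7 peaks and 56.9% coverage, against 3.15% around it. Its peaks included the widest among the members, 3649 bp with a log2 ratio of 3.35, beside one of 2619 bp with 3.39. DUSP6, the cytoplasmic ERK phosphatase on chromosome 12 (89347235 to 89352501), had 5 peaks and 37.5% coverage, against 1.11%. One ran from -1511 to 290 bp over the start, and the strongest (4.79) lay 3284 bp past the gene. The annotated readthrough gene POC1B-DUSP6 shares this locus.

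DUSP1, which acts on ERK, JNK and p38, had 2 peaks, one of them 2522 bp wide over its start with a log2 ratio of 2.33, and 33.8% coverage, against 4.74%. DUSP4, another nuclear phosphatase, had 3 narrow peaks of 3.07 to 4.28 and 5.68% coverage, against 0.72%. DUSP10, which acts on JNK and p38, had 1 peak that ended 18 bp inside the start, so 0.044% of its span was covered, against 0.50%. With 5 kb on each side it was 3.02%. DUSP2 and DUSP8 had no peak, with surroundings covered to 10.4% and 1.85%.

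Among the remaining genes, IER2 on chromosome 19 (13150411 to 13154911) had 6 peaks and 68.5% coverage, against 14.2%, and IER5 had 3 peaks and 24.6%, against 1.78%. The ZFP36 genes encode proteins that bind AU-rich elements and promote mRNA decay. ZFP36 had 4 peaks, none with its midpoint in the gene, and 5.23% coverage, against 9.98%. With 5 kb on each side its coverage was 36.7%, above that of the surroundings. ZFP36L1 was covered to 29.2%, against 7.53%, and ZFP36L2 to 9.51%, against 3.39%.

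The NR4A genes encode orphan nuclear receptors, and each had a peak inside the gene with a log2 ratio above the upper quartile of the whole list at 3.52. NR4A2 had one of 4.52 and another of 3.26, the second within 1 kb of the upper end of the gene, and 18.4% coverage, against 0.25% around it. NR4A3 had one of 4.34 at 25561 bp after the start and 3.37% coverage, against 0.86%. NR4A1 had one of 3.89 at 10179 bp after the start and 3.74%, against 2.52%. Neither NR4A1 nor NR4A3 had a peak within 1 kb of the start used here. The second peak of NR4A1 (2.32) lay 28322 bp after that start, and other starts of these genes were not examined. The start of NR4A2 was not placed.

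GADD45B, a stress sensor upstream of p38 on chromosome 19 (2476127 to 2478257), was the most covered of the 42 genes, at 89.2%, against 26.1% around it. Of its 5 peaks, 3 had midpoints in the gene, with log2 ratios of 2.65, 3.52 and 2.70. GADD45A, the p53-induced relative, had 1 peak (2.92) and 34.6% coverage, against 3.03%. BTG2, an antiproliferative protein that recruits the deadenylase complex, had none.

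The members' peaks were of ordinary to low strength. Their median log2 ratio was 2.82 (quartiles 2.41 and 3.33, 130 peaks), against 2.99 (quartiles 2.58 and 3.52) for the whole list. In the gene itself the median was 3.04 over 76 peaks. Before the start it was 2.50 over 20 peaks and past the end 2.72 over 18 peaks, both for the members with a known strand. Ratios at a whole number of steps made up 5 of the 130 (3.85%), against 12.4% of all peaks. By family the medians ran from 2.25 for JUN and 2.35 for ZFP36 to 3.38 for SRF and 3.47 for NR4A.

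**Figure D4:**
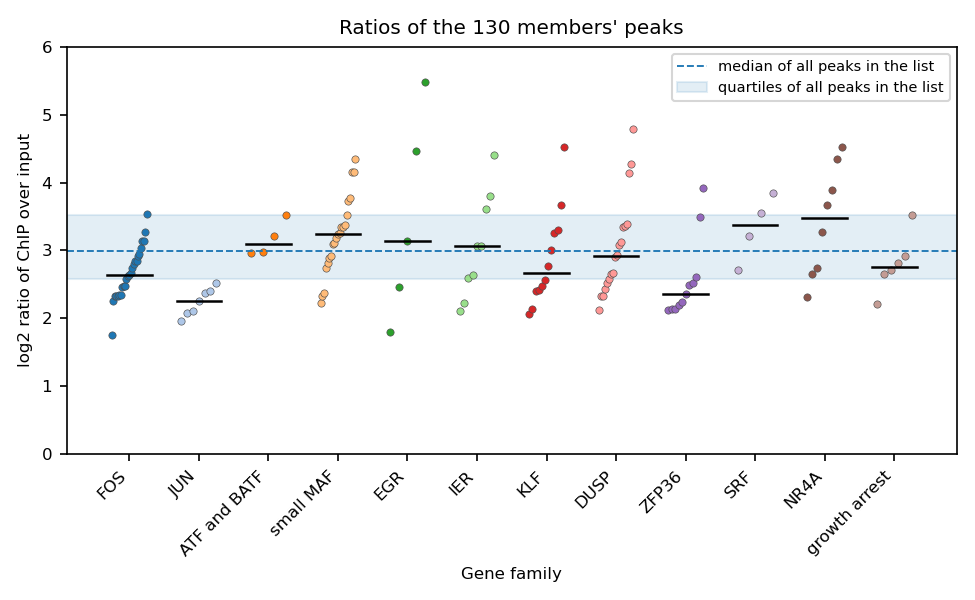
Log2 ratio of ChIP over input of the 130 peaks by gene family (points, one for each peak; black lines, family medians), with the median (dashed, 2.99) and quartiles (band, 2.58 to 3.52) of the whole list. All 7 peaks of the JUN family lie below the band.

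The other genes of the pathway were set beside them. Upstream factors and kinases had a peak in 24 of 25 genes (96.0%), where 18.4 would follow from their length classes. Their median coverage was 7.08%. The most covered were MAP2K2 (63.8%), a kinase that activates ERK, MAPK7 (53.7%), which encodes ERK5, and ELK3 (52.2%), a ternary complex factor, while MAP2K4 had no peak. Other bZIP factors had one in 22 of 24 (91.7%), where 15.1 would follow, with a median coverage of 5.34%. DDIT3, the stress factor CHOP, was covered to 80.7%, NFE2L1 to 67.7% and CEBPB to 59.5%, and CEBPD and NFE2L3 had no peak.

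KLF and SP factors outside the 42 had a peak in 14 of 18 genes (77.8%), where 12.9 would follow, with SP1 at 46.9%, KLF16 at 24.5% and KLF11 at 18.96% coverage and none at KLF13 and KLF14. DUSP genes outside the 42 had one in 11 of 17 (64.7%), where 10.9 would follow, with DUSP7 at 31.7%, DUSP11 at 30.95% and DUSP28 at 27.3% and none at DUSP9 and DUSP19. The share of both lists was thus near that of genes of their length. Described AP-1 targets and feedback genes, which also include DUSP7, had one in 22 of 28 (78.6%), where 18.2 would follow. CCND1 (74.8%), which encodes cyclin D1, and the urokinase receptor and urokinase genes PLAUR (67.1%) and PLAU (50.3%) were the most covered. The genes without a peak were IL6, CXCL8, HMOX1, MMP1, MMP9 and SPP1.

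**Figure D5:**
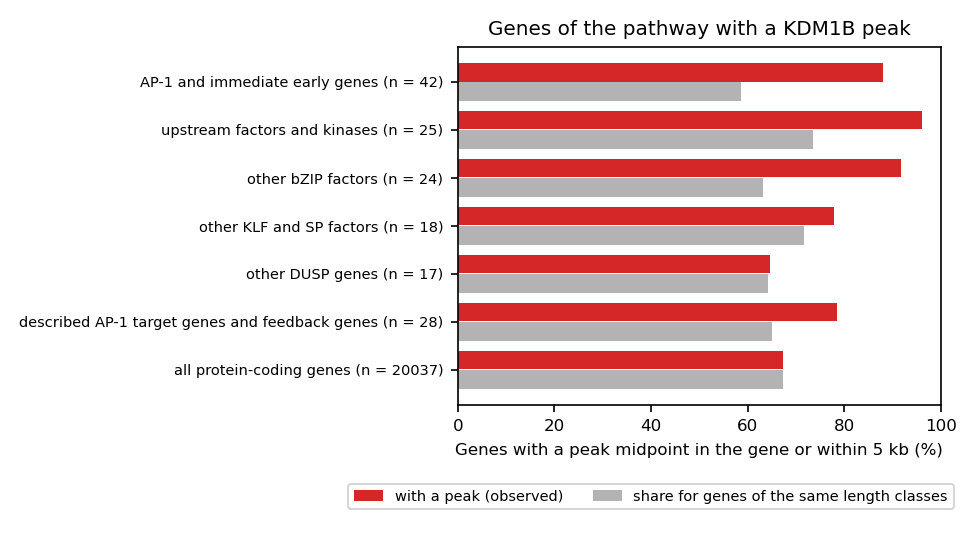
Percent of genes with a peak midpoint in the gene or within 5 kb (red) and the share for genes of the same length classes (grey) for the 42 members, 5 other lists of the pathway and all protein-coding genes. The members stand at 88.1% beside 58.6%, and DUSP genes outside the list at 64.7% beside 64.1%.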

How the data were processed

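Anti-FLAG ChIP and input DNA of MDA-MB-231 cells were sequenced, 1 library each. The submitters' processing notes name Trim Galore 0.4.5, Bowtie2 2.2.9 and the build hg38, whereas the sources used here do not give the peak caller or its thresholds. The deposited list gives chromosome, start, end and a log2 ratio per peak, the authors' own value, taken here to describe and rank peaks. The log2 scale was read from the values, whose linear forms are ratios of whole numbers times a step of 2.64 (tolerance 1e-06 after division by the step). Depth is unknown, and coordinates are printed as deposited.

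Peaks were assigned to genes of a RefSeq table (GRCh38.p14, whose chromosomes share the coordinates of hg38) by midpoint, with 5 kb on each side, using Python 3.11.15, pandas 2.3.3 and numpy 2.4.6. Coverage is the percent of bases of the gene span under peaks. Length classes are 10 equal groups of protein-coding genes. Starts, strands and promoter sequences came from a RefSeq promoter table. Members and lists were chosen with earlier results of these data known, and no test was run. All members are named, and of each other list up to 3 genes with the highest coverage. Up to 2 genes without a peak are named in each other list, and all of them among the described AP-1 targets. Counting was checked on simulated peaks.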

Additional observations from a re-analysis of the deposited data

How the results depend on the processing

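The number of members with a peak stayed between 27 and 38 under the other flanks (38 at 20 kb), any overlap of 1 bp, the stronger part of the list, removal of whole multiples of the step, and peaks nearest to the member only. With the stronger 50% of the peaks 27 members had one (64.3%), against 54.6% of all genes, so the difference from all genes was smaller there. The number of peaks was 76 in the gene span alone and 53 with the stronger peaks, against 130 as reported, because fewer peaks enter. With peaks within 1 kb of each other joined it was 87. Median coverage was 2.39% with the stronger peaks, against 0 over all genes. Gene by gene, coverage with the stronger peaks was classed as moved in 22 members and as the same in 20. It fell to 0 at several genes, among them FOS (32.7% as reported), JUNB (55.6%), DUSP1 (33.8%), ZFP36L1 (29.2%) and GADD45A (34.6%). At KLF4 and SRF it did not change. Start peaks were found in 11 members at 500 bp and 13 over the start base, against 21. The median log2 ratio was 3.04 in the gene span alone. Without whole multiples EGR3 lost its peak and 36 members kept one, and coverage was lower at JUND (7.26%, against 24.7% as reported) and KLF2 (25.9%, against 44.8%). MAFK then stood at 49.6%, just below the 50% mark. Leaving out the members on chromosome 19 and the flank of 20 kb were alternatives added later, with the data known. No paired analysis was possible because each group holds 1 library without a replicate number. Depth limits every ratio by an unknown amount.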

Other observations

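Several members stood in sequence with few other peaks. The surroundings of IER3 were covered to 0.18%, those of NR4A2 to 0.25%, of DUSP10 to 0.50% and of DUSP4 to 0.72%. Those of NR4A3 were covered to 0.86% and of KLF4 and DUSP6 to 1.11% each. The median over all protein-coding genes was 4.12%. The coverage of these genes themselves ran from 0 at IER3 and 0.044% at DUSP10 to 63.6% at KLF4.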
